A study of Mus musculus with 23 samples.

Results

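The 31 genes described here encode the enzymes, carriers and regulators by which cells burn fatty acids, and each was taken by its gene symbol from the deposited count tables of 3 mouse tissues. All 31 were found in each table, among 20628 genes in muscle, 26702 in subcutaneous white fat and 25623 in hypothalamus (29894 different genes in all), and all 31 passed the filter on low counts in every tissue. C57BL/6 mice received vehicle or oxaliplatin, a platinum chemotherapy drug, at 10 mg/kg in a study of 8 weeks, and RNA was sequenced from tibialis anterior (a fast muscle of the shin), subcutaneous white adipose tissue and hypothalamus. The groups were 4 vehicle and 5 oxaliplatin libraries in muscle, and 3 vehicle and 4 oxaliplatin libraries in each of fat and hypothalamus, 23 in all. The labels give no allele, transgene or age for the animals, and each library is treated as a separate sample named by its mouse number, so p-values measure the spread between these samples. The comparison asks how an oxaliplatin course that the study's title links to wasting bears on fuel-burning genes in muscle, fat and brain.

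Fatty acids are burned in steps. Acyl-CoA synthetases such as ACSL1 activate them, the carnitine shuttle (CPT1, the carrier SLC25A20 and CPT2) brings long chains into mitochondria, and a spiral of dehydrogenases, hydratases and thiolases then removes acetyl-CoA while passing electrons through ETF to the respiratory chain. CPT1 is the controlled step and is blocked by malonyl-CoA, which MLYCD removes. Peroxisomes shorten very long chains with their own enzymes, among them EHHADH and ACAA1. The fatty acid sensors PPARα and PPARδ switch on many of these genes in fasting, with PDK4 (a brake on glucose oxidation), ANGPTL4 (a secreted inhibitor of lipoprotein lipase) and UCP3 (a mitochondrial carrier) among their targets. White fat mainly stores fatty acids, muscle is a large consumer, and brain uses little of them as fuel.

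Promoter sequence is shown for 4 genes on which the results turn. Ehhadh had the largest positive fold change in fat, Cpt1a and Ucp3 had lower values there, and Hadhb is transcribed away from Hadha, its partner subunit, out of a shared stretch. Windows of 300 bases, from 250 before to 50 after a RefSeq start site (GRCm38.p6), were found for 26 of the 31 genes (27 windows). The core letters AGGTCA of the half-site bound by PPARs and other nuclear receptors were searched on both strands. Of the 27 windows 5 held them (18.5%), against 16.3% of all 32851 windows of that length: those of Acadm, Acadvl, Cpt1a, Echs1 and Ucp3. The Ucp3 window held 2 matches, and 1.81% of all windows held 2 or more. Capitals mark the match in the Cpt1a window (chr19:3323051-3323350, plus strand, where it reads on the opposite strand, 94 bases before the start) and in the Ucp3 window (chr7:100472741-100473040, plus strand, 149 and 44 bases before the start). The Ehhadh window (chr16:21787785-21788084, minus strand) held no match. In the Hadhb window (chr5:30155003-30155302, plus strand) capitals mark the 228 bases shared with the Hadha window on the opposite strand. A match is only a run of letters and was not tested as a binding site. In the same build Angptl4 spans chr17:33773750-33781830, Pdk4 chr6:5483351-5496309, Acaa1a chr9:119339676-119350299 and Decr1 chr4:15917240-15945507, the other genes to which the results return most.
Ehhadh: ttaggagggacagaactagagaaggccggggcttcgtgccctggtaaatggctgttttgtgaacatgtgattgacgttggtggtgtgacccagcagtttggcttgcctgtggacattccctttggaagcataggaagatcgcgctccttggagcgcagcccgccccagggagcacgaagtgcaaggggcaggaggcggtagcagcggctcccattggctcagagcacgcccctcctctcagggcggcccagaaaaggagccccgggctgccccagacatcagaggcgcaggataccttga
Cpt1a: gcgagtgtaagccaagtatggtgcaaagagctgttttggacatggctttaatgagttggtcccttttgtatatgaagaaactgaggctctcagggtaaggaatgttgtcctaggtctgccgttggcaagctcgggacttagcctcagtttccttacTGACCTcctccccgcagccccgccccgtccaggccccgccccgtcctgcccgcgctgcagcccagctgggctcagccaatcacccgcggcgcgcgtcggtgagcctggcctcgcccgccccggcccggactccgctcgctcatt
Ucp3: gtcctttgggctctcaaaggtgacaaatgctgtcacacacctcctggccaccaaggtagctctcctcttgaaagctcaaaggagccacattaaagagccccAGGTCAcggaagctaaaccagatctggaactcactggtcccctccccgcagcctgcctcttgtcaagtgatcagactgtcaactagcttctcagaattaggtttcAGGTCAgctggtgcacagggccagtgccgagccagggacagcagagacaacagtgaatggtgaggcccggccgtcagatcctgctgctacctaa
Hadhb: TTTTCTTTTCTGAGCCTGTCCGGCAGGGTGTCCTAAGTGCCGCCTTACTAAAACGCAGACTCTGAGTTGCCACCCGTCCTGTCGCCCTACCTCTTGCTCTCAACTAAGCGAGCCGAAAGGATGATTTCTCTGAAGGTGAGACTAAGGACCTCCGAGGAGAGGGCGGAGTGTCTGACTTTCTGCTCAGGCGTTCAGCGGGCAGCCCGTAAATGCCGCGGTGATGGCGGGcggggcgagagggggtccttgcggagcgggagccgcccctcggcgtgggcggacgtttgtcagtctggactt

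Library totals ran from 2.24e+07 to 3.22e+07 counts in muscle, from 1.65e+07 to 2.27e+07 in fat and from 2.36e+07 to 2.85e+07 in hypothalamus. Several libraries stood apart, and results that rest on them are given with and without them. The fat library of oxaliplatin mouse 5 stood apart from the other oxaliplatin fat libraries in many, not all, adipocyte and matrix markers. Lep, the hormone leptin, read 394 CPM (counts-per-million, a level scaled to library size) there, 5.16 to 11.7 in oxaliplatin mice 2 to 4 and 875 to 911 in vehicle. The summed CPM of 8 fibroblast and matrix markers was 11480 in that library, 716 to 1254 in the other oxaliplatin fat libraries and 6198 to 8411 in vehicle. Of those markers Dcn (575 in mouse 5, 440 to 705 in mice 2 to 4, 411 to 583 in vehicle) and Pdgfra did not separate, and the adipocyte gene Cfd was above vehicle in mouse 5 as in mice 2 to 4. The fat library of vehicle mouse 4 carried 139100 summed CPM of 11 fast myofibre markers, against 16.2 to 3429 in the other fat libraries. Hypothalamus of oxaliplatin mouse 5 lay between the arms in 8 endothelial markers, at 476 summed CPM, with 720 to 855 in mice 2 to 4 and 221 to 242 in vehicle. In muscle, the library titled as oxaliplatin mouse 5 carries a vehicle treatment entry and is kept with oxaliplatin by its title. The markers of each labelled tissue were present: fast myofibre transcripts summed to 154700 CPM or more in every muscle library, 12 adipocyte markers to 19420 or more in every fat library, and 9 neuron markers to 2628 or more in every hypothalamus library. In tissue RNA, fewer cells of a type and less RNA per cell cannot be told apart.

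In vehicle libraries all 31 members were read in each of the 3 tissues, at different relative RNA levels. Levels are given per kb of exon, over all annotated exons of a gene joined, so ranks between genes depend on this length. They come from tables scaled separately, with 1 library kit for muscle and another for fat and hypothalamus. They are thus set side by side without a test. The balance of the 2 forms of CPT1 differed between tissues. In vehicle muscle the level of the muscle form Cpt1b was 134.7 CPM per kb and that of the liver form Cpt1a 1.03. Fat had 12.5 for Cpt1b and 11.0 for Cpt1a, and hypothalamus 0.365 for Cpt1b and 5.46 for Cpt1a. Per kb the ratio of Cpt1b to Cpt1a was thus 141 ± 46.2 (SD, n = 4) in vehicle muscle, 1.16 ± 1.04 (n = 3) in fat and 0.0678 ± 0.0245 (n = 3) in hypothalamus. In fat it was 0.905 in vehicle mouse 1, 0.263 in mouse 2 and 2.30 in mouse 4, the library rich in myofibre transcripts. Acsl1, which activates long-chain fatty acids, was the most abundant of the 31 in fat at 192 CPM per kb, and stood at 23.7 in muscle. Fabp3, a fatty acid carrier of heart and muscle, led in muscle at 690 CPM per kb and in hypothalamus at 36.2. The very-long-chain dehydrogenase Acadvl stood at 302 CPM per kb in muscle, 61.0 in fat and 12.7 in hypothalamus. At the other end, Angptl4 was at 51.5 CPM per kb in fat but 0.499 in muscle and 0.845 in hypothalamus. Ppard, one of the sensors, was lowest of all 31 in muscle at 0.429 CPM per kb. Before division by length Angptl4 was lowest there, at 1.77 CPM, with Ppard at 3.22.

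**Figure D1:**
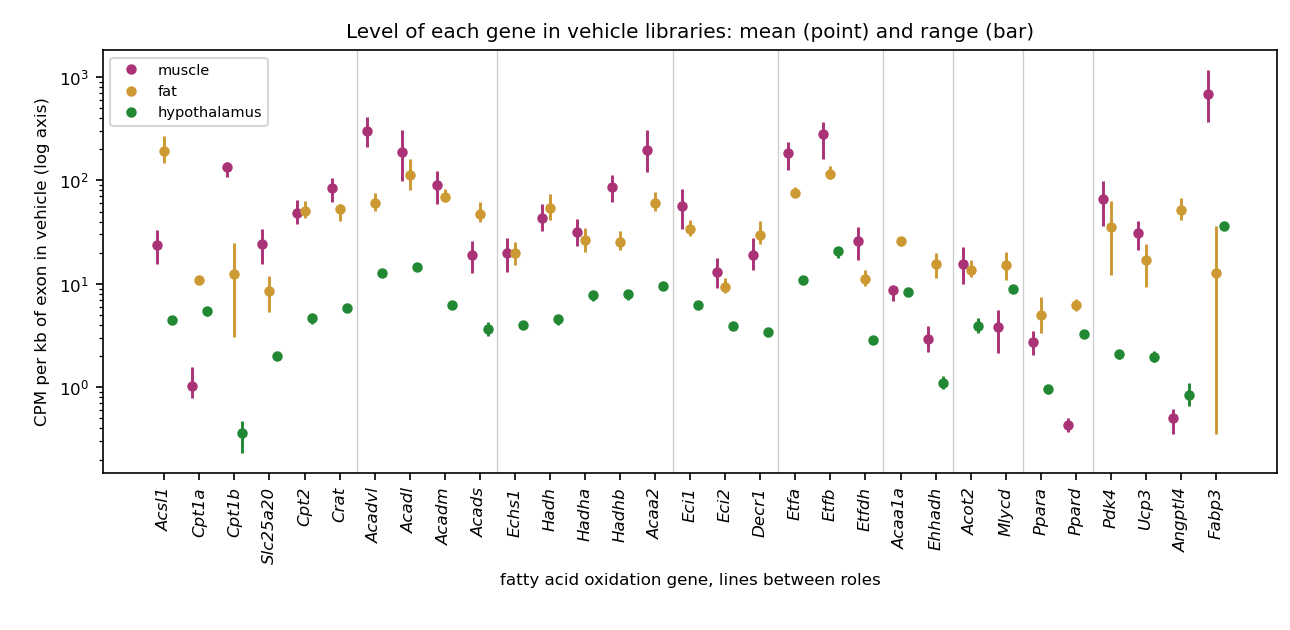
Level of each of the 31 genes in vehicle libraries, as CPM per kb of exon on a log axis (points are means, bars run from the lowest to the highest library; muscle n = 4, fat and hypothalamus n = 3). Cpt1b stands at 134.7 in muscle and 0.365 in hypothalamus, Cpt1a at 1.03 and 5.46, and the top of the long Fabp3 bar in fat is vehicle mouse 4.

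The response to oxaliplatin was read from 1 fit per tissue over all genes, by edgeR's quasi-likelihood F test with Benjamini-Hochberg adjustment and 0.05 as the threshold. With all libraries, 0 of the 31 genes passed in any tissue, where the shares of all tested genes that passed were 0.163% of 14737 muscle genes, 0% of 19870 fat genes and 0.148% of 18941 hypothalamus genes. At an unadjusted p under 0.05 the counts were 0 of 31 for muscle, 12 for fat and 8 for hypothalamus, beside 9.59%, 26.1% and 10.2% of all genes. DESeq2, another count model, called 0 of 31 for muscle, 6 for fat and 2 for hypothalamus, beside 1.72%, 12.3% and 1.38% of all genes. limma-voom with sample quality weights called 0, 10 and 2, beside 0.122%, 25.6% and 1.92%. The median log2 fold change of the 31 was 0.06 (muscle), -0.23 (fat) and -0.07 (hypothalamus), and that of all genes tested was -0.01, 0.03 and 0.01. With all libraries, DESeq2 called Ehhadh higher and Acaa2, Cpt1b, Decr1, Hadh and Ucp3 lower in fat. There limma-voom called Ehhadh and Ppard higher, and Acaa2, Acads, Cpt1a, Cpt2, Decr1, Etfa, Hadh and Ucp3 lower. In hypothalamus DESeq2 called Angptl4 higher and Ucp3 lower, and limma-voom called Acaa1a and Hadhb lower. The edgeR counts for fat and hypothalamus turned on mouse 5 of the oxaliplatin arm, as given below.

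**Figure D2:**
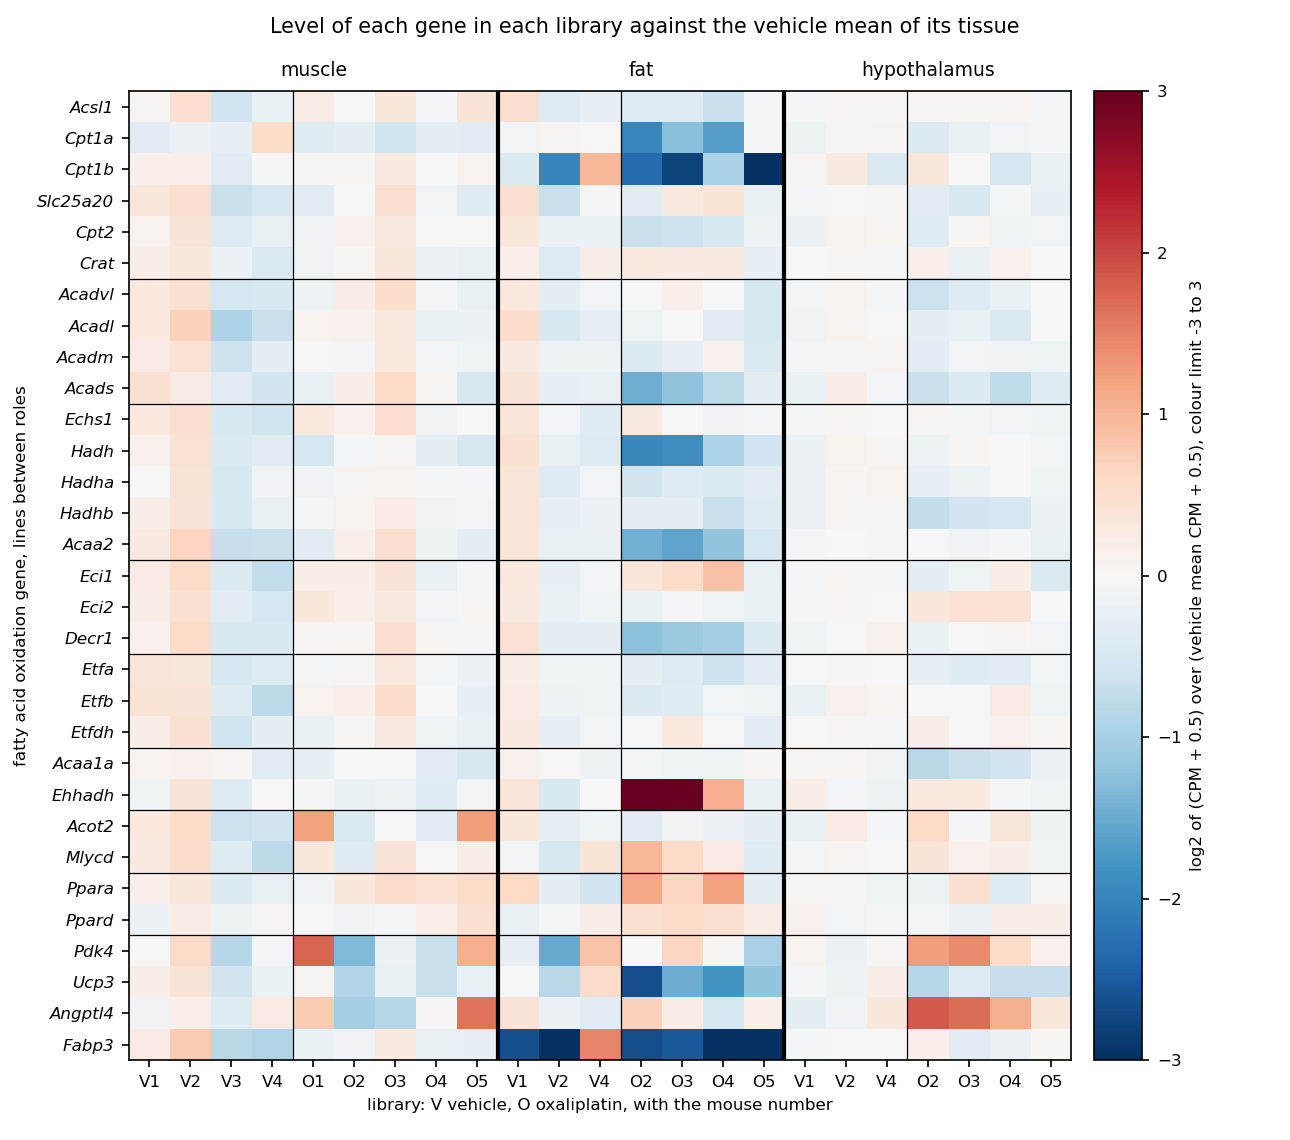
Level of each gene (rows, by role) in each library (columns, V vehicle and O oxaliplatin with the mouse number) as log2 of its CPM over the vehicle mean of the tissue, 0.5 CPM added to both. Colours are limited to ±3, and values ran from -4.2 (Cpt1b in fat of oxaliplatin mouse 5) to 3.55 (Ehhadh in fat of oxaliplatin mouse 2). Fat shows the strongest colours, among them Cpt1b and Fabp3, whose vehicle means include the high values of vehicle mouse 4. V3 and V4 of muscle are pale blue in nearly every row.

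In muscle 0 of the 31 genes passed in any setting run. Of them 22 had a fitted fold change above 0 and 9 below, from -0.40 for Cpt1a to 0.59 for Angptl4, and adjusted p-values ran from 0.551 to 0.9995 (edgeR). No gene had arms that did not overlap, whereas 3.89% of all muscle genes did. The 4 acyl-CoA dehydrogenases, which open each turn of the spiral, lay between 0.02 (Acadm) and 0.09 (Acadvl) on the log2 scale. The 3 electron transfer genes Etfa, Etfb and Etfdh lay between -0.03 and 0.13. The 5 genes of the later steps ran from -0.24 for Hadh, the short-chain hydroxyacyl-CoA dehydrogenase, to 0.18 for the hydratase Echs1.

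The spread in muscle sat within the arms. Averaged over the 31 genes on the log2 scale and set against the vehicle mean, the first pair of vehicle mice (1 and 2) stood at 0.22 and 0.47, vehicle mice 3 and 4 at -0.41 and -0.28, and the 5 oxaliplatin libraries between -0.07 and 0.25. Vehicle mouse 2 was above the vehicle mean in 30 of 31 genes and vehicle mouse 3 in 1 of 31. The vehicle arm thus enclosed all oxaliplatin libraries. Vehicle mice 3 and 4 also read 978 and 1104 summed CPM of 9 slow or oxidative myofibre markers, where vehicle mouse 1 had 1896 and mouse 2 had 2435. Their fibroblast and matrix sum was 1263 and 1859, against 556 and 668, and their lymphocyte sum 10.1 and 12.3, against 3.36 and 3.42. The part of these tissue components in the levels of the 31 genes was not tested.

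Pdk4 and Angptl4 had the largest fitted changes in muscle. Pdk4 in the 4 vehicle libraries, mice 1 to 4, read 236, 346, 128 and 224 CPM, and the 5 oxaliplatin libraries read 779, 93.7, 208, 147 and 494. Mice 1 and 5 were above every vehicle library and mouse 2 below every one, so the arms overlapped. Its fold change was 0.56 on the log2 scale (SE 0.62, edgeR adjusted p = 0.880), and 0.01 without mouse 1. Angptl4 read 1.60, 2.04, 1.26 and 2.18 CPM in vehicle and 3.35, 0.635, 0.750, 1.83 and 6.54 in oxaliplatin mice 1 to 5. Again mice 1 and 5 were above all vehicle libraries, mice 2 and 3 were below all, and the fold change was 0.59 (SE 0.60, adjusted p = 0.861). Without mouse 5 it was -0.09, and with that library set to vehicle, as its treatment entry reads, -0.71. Acot2, a mitochondrial thioesterase, was high in the same 2 libraries at 80.3 CPM in mouse 1 and 82.2 in mouse 5, with 25.2 to 33.9 in oxaliplatin mice 2 to 4 and 22.1 to 50.2 in vehicle; it was singled out after its values were seen.

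**Figure D3:**
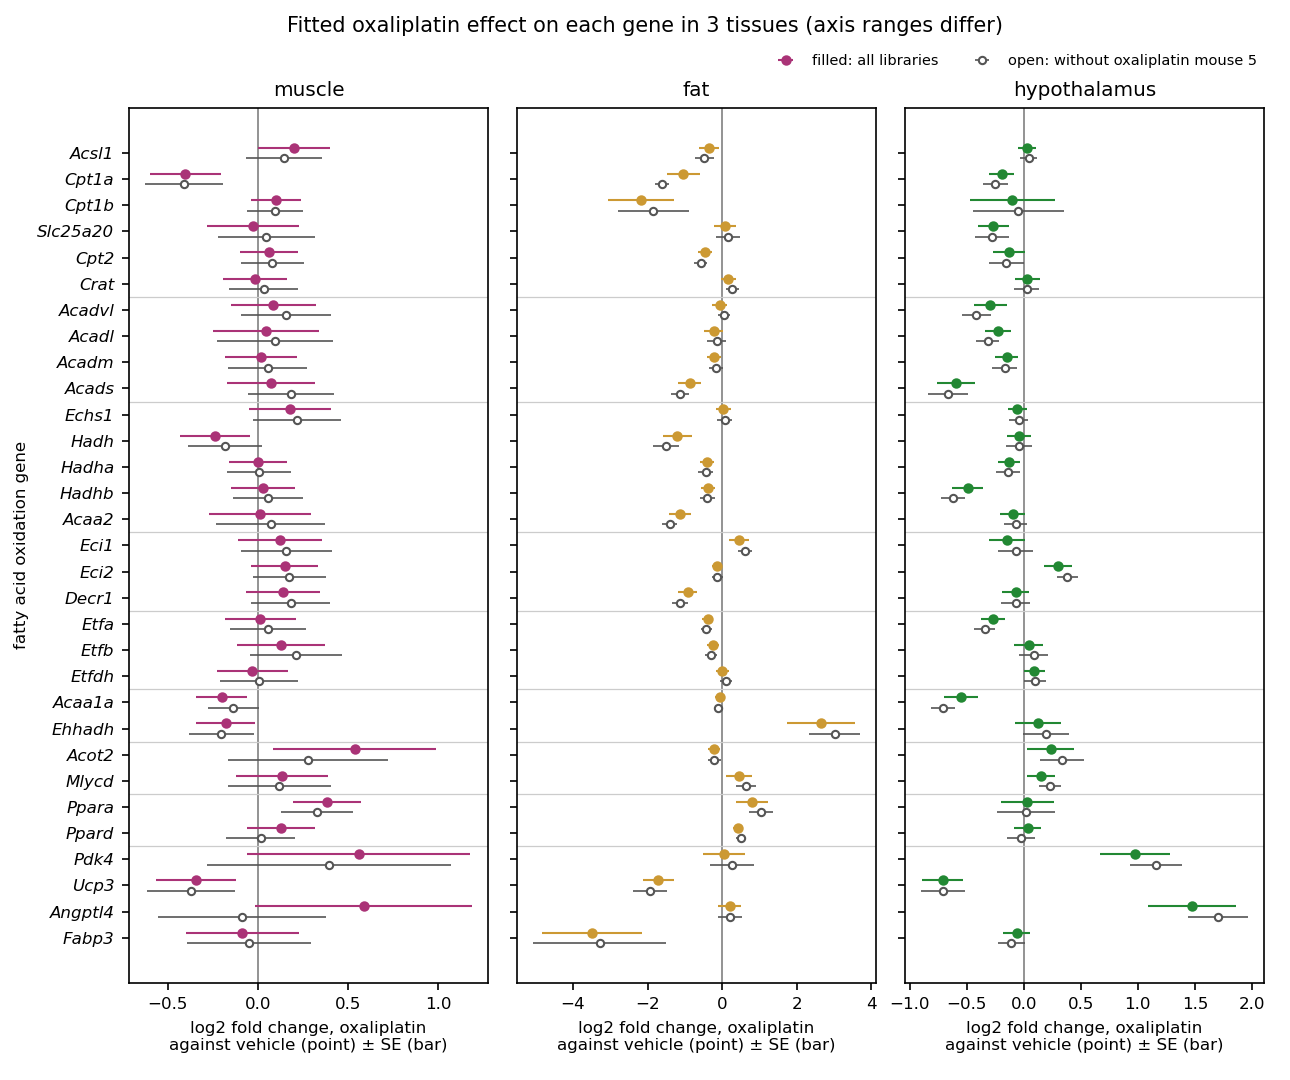
Fitted log2 fold change of oxaliplatin against vehicle (points) with its SE (bars) for the 31 genes in each tissue, with all libraries (filled) and without oxaliplatin mouse 5 (open). Muscle points lie between -0.40 and 0.59, and the axis ranges differ between panels.

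In fat the members split. With oxaliplatin mouse 5 left out, 9 of 31 genes passed the test: Ehhadh and Ppard rose, and Cpt1a, Cpt2, Acads, Hadh, Acaa2, Decr1 and Ucp3 fell. That fit called 25.5% of 19472 genes, 12.0% higher and 13.5% lower, against 29.0% of the 31, 6.45% higher and 22.6% lower. The total share is near that of all genes, and whether the split by direction differed from theirs was not tested. Leaving out any of the other 6 fat libraries called 0 of the 31. The library left out lay nearest to vehicle in most of these genes, so leaving it out narrows the spread within the arm. The p-values without mouse 5 depend on that choice and may be too small. DESeq2 without mouse 5 called 12 (30.1% of all genes), limma-voom 12 (29.8%), and edgeR without both mouse 5 and vehicle mouse 4 called 8, the 9 less Ehhadh (20.1%). With all libraries, 8 of 31 genes had arms that did not overlap, 1 higher (Ppard) and 7 lower, beside 21.5% of all fat genes. The same 3 oxaliplatin libraries, mice 2 to 4, were low in matrix markers and Lep (above), and in the 12 adipocyte markers, with 19420 to 21200 summed CPM against 25540 to 33760 in vehicle and 31590 in mouse 5. Within that list Cfd went the other way, at 7386 to 10480 CPM in mice 2 to 4, 4606 to 6321 in vehicle and 9756 in mouse 5, as did Pparg, at 240 to 334, 181 to 206 and 169. Red cell markers summed to 204 to 554 in mice 2 to 4, 681 to 937 in vehicle and 1528 in mouse 5, and lymphocyte markers to 293 in mouse 5 and 15.9 to 80.8 in the other fat libraries. How far the makeup of the depot enters the values of the 31 genes was not tested.

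Of the carnitine shuttle, the entry enzyme and the inner enzyme were lower. Cpt1a read 79.9, 89.1 and 83.3 CPM in vehicle (mice 1, 2 and 4 in this order) and 21.3, 34.7, 26.4 and 80.8 in oxaliplatin mice 2, 3, 4 and 5. Mice 2 to 4 lay far below the narrow vehicle range and mouse 5 inside it. The log2 fold change was -1.05 with all libraries (SE 0.44, edgeR adjusted p = 0.188) and -1.62 without mouse 5 (SE 0.18, adjusted p = 0.00176). Cpt2, which rebuilds acyl-CoA on the inner side, read 151, 104.5 and 105.5 CPM in vehicle and 76.1, 78.2, 87.2 and 108 in oxaliplatin. Only mouse 5 overlapped vehicle, and the fold change moved from -0.46 (adjusted p = 0.179) to -0.58 without it (SE 0.17, adjusted p = 0.0413). The carrier Slc25a20 and the carnitine acetyltransferase Crat did not pass in either fit, at 0.07 and 0.16 with all libraries. Acsl1 was at -0.35 (adjusted p = 0.420).

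Cpt1b and Fabp3, the muscle forms, were highest in the vehicle library that carried myofibre transcripts. Fabp3 read 1.27, 0.289 and 29.9 CPM in vehicle and 1.24, 1.37, 0.6252 and 0.470 in oxaliplatin. Vehicle mouse 4 alone was high. The fitted change was -3.49 with all libraries (SE 1.35, edgeR adjusted p = 0.165) and 0.29 without that library. Cpt1b read 31.9, 10.3 and 84.6 CPM in vehicle and 8.11, 5.71, 21.5 and 1.82 in oxaliplatin, with overlapping arms, and had a fold change of -2.18 (SE 0.89, adjusted p = 0.181). Without vehicle mouse 4 it was -1.16, the smallest change with 1 library left out, and without oxaliplatin mouse 5 as well -0.83 (adjusted p = 0.439). DESeq2 with all libraries called it lower (adjusted p = 0.0498).

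Inside the mitochondrion, 1 of the 4 dehydrogenases and 2 of the 5 genes of the later steps passed without mouse 5, all lower. Acads, the short-chain dehydrogenase, read 141, 90.5 and 92.0 CPM in vehicle and 38.7, 46.6, 61.9 and 88.7 in oxaliplatin. Every oxaliplatin library was below every vehicle library, mouse 5 by little, and the fold change was -0.87 (SE 0.31, edgeR adjusted p = 0.147), or -1.14 without mouse 5 (SE 0.24, adjusted p = 0.0147). The other 3 dehydrogenases, Acadvl, Acadl and Acadm, lay between -0.23 and -0.06. Hadh read 371, 229 and 206 CPM in vehicle and 70.1, 73.8, 142 and 180 in oxaliplatin, again without overlap. Its fold change was -1.21 (SE 0.39, adjusted p = 0.135), and -1.50 without mouse 5 (SE 0.35, adjusted p = 0.0239). Acaa2, the thiolase that closes the turn, read 117, 77.1 and 77.8 CPM in vehicle and 32.9, 29.9, 39.9 and 62.4 in oxaliplatin. All oxaliplatin libraries were below vehicle, with mouse 5 the nearest, and the change was -1.14 (SE 0.28, adjusted p = 0.116) or -1.41 without it (SE 0.20, adjusted p = 0.00371).

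The trifunctional protein subunits, which carry the long-chain later steps, were at -0.41 for Hadha (edgeR adjusted p = 0.221) and -0.39 for Hadhb (adjusted p = 0.223), and Echs1 was at 0.03. Among enzymes for unsaturated chains, Decr1, the dienoyl-CoA reductase, read 155.5, 94.0 and 95.9 CPM in vehicle and 48.4, 53.2, 55.7 and 84.8 in oxaliplatin. No oxaliplatin library reached the vehicle range, and the fold change was -0.93 (SE 0.26, adjusted p = 0.120), or -1.14 without mouse 5 (SE 0.21, adjusted p = 0.00880). The isomerase Eci1 pointed the other way, at 88.5, 61.2 and 68.3 CPM in vehicle and 93.5, 106, 134 and 62.4 in oxaliplatin. Mice 2 to 4 were above vehicle and mouse 5 was inside its range, with a fold change of 0.45 (adjusted p = 0.303). It was 0.61 without mouse 5 (edgeR adjusted p = 0.0502, DESeq2 0.0229, limma-voom 0.0396), so the call depended on the tool. The isomerase Eci2 was at -0.14. Etfa, which takes electrons from all the acyl-CoA dehydrogenases, had arms that did not overlap (126.5 to 159.6 CPM in vehicle, 89.2 to 114 in oxaliplatin) but did not pass in either edgeR fit (-0.39, adjusted p = 0.150 and 0.0732). It was called lower by limma-voom with all libraries (adjusted p = 0.0477) and DESeq2 without mouse 5 (0.0416). DESeq2 with all libraries and limma-voom without mouse 5 did not call it (0.0654 and 0.0595). Etfb and Etfdh were at -0.25 and 0.00.

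Ehhadh, the peroxisomal bifunctional enzyme and a classic PPARα target, had the largest rise. It read 59.8, 33.7 and 46.3 CPM in vehicle and 550, 480, 99.6 and 40.3 in oxaliplatin mice 2, 3, 4 and 5. Mice 2 and 3 were far above vehicle, mouse 4 above it by less, and mouse 5 inside its range. The fold change was 2.65 with all libraries (SE 0.91, edgeR adjusted p = 0.143) and 3.01 without mouse 5 (SE 0.68, adjusted p = 0.0273), but with vehicle mouse 4 left out as well it was 3.01 with adjusted p = 0.0533. The peroxisomal thiolase Acaa1a lay at -0.07 (adjusted p = 0.724).

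Of the 2 sensors, Ppard rose in the edgeR fit without mouse 5. It read 41.0, 45.8 and 53.9 CPM in vehicle and 64.4, 69.7, 64.3 and 54.7 in oxaliplatin. All 4 oxaliplatin libraries were above vehicle, mouse 5 by little. The fold change was 0.43 (SE 0.14, edgeR adjusted p = 0.131), and 0.49 without mouse 5 (SE 0.13, adjusted p = 0.0290). Ppara read 28.9, 15.7 and 12.7 CPM in vehicle and 43.3, 30.3, 44.5 and 15.5 in oxaliplatin, with mouse 5 inside the vehicle range. Its fold change was 0.81 (adjusted p = 0.262), and 1.04 without mouse 5 (edgeR adjusted p = 0.0564, DESeq2 0.00793, limma-voom 0.0423), so the call depended on the tool. Genes known as their targets did not follow 1 direction. Ucp3 read 53.1, 29.3 and 76.1 CPM in vehicle and 7.95, 18.5, 14.9 and 23.0 in oxaliplatin, with no overlap. The change was -1.72 (SE 0.42, adjusted p = 0.114), -1.94 without mouse 5 (SE 0.45, adjusted p = 0.0255), and -1.58 with vehicle mouse 4 left out too (adjusted p = 0.0406). Pdk4 and Angptl4 were at 0.05 and 0.20, with adjusted p = 0.965 and 0.687. Pdk4 in vehicle was highest in mouse 4, at 224 CPM, with 105 and 42.9 in mice 1 and 2 and 62.9 to 194 in oxaliplatin. Its change was 0.895 by limma-voom (adjusted p = 0.217), and 1.02 by edgeR without vehicle mouse 4 and oxaliplatin mouse 5 (adjusted p = 0.130). Mlycd, which removes the CPT1 inhibitor malonyl-CoA, was at 0.45 (adjusted p = 0.419), and Acot2 at -0.23. Without mouse 5, limma-voom called Mlycd higher (0.78, adjusted p = 0.0478), and edgeR and DESeq2 did not (0.131 and 0.0987).

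**Figure D4:**
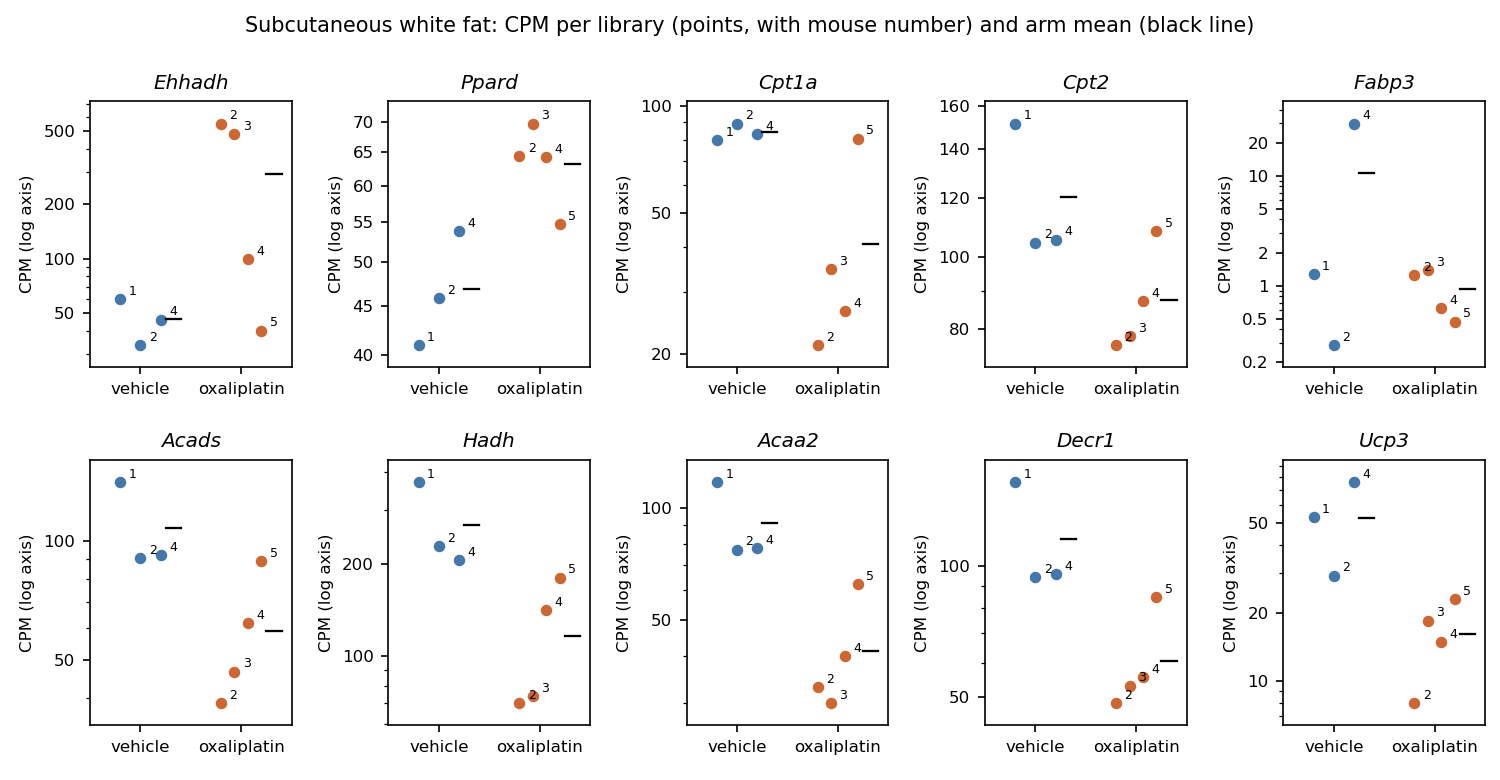
CPM of 10 genes in each fat library (points with the mouse number, vehicle blue and oxaliplatin orange; black line, arm mean), each on its own log axis. Ehhadh reaches 550 and 480 in oxaliplatin mice 2 and 3; mouse 5 lies at or near vehicle in most panels; Fabp3 is high in vehicle mouse 4 alone.

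In hypothalamus, changes were smaller. Without oxaliplatin mouse 5, Angptl4 and Pdk4 rose and Hadhb and Acaa1a fell, 4 of 31 genes. The background in that fit was 3.49% of 18781 genes, 2.12% higher and 1.36% lower. Leaving out any of the other 6 libraries called 0 of 31, and DESeq2 without mouse 5 called 7, beside 6.88% of all genes. As in fat, p-values without mouse 5 depend on the choice of the library left out and may be too small. With all libraries 7 of 31 genes had arms that did not overlap, Pdk4 higher and Acadm, Acads, Hadhb, Etfa, Acaa1a and Ucp3 lower, beside 9.93% of all genes. Endothelial markers were higher in the oxaliplatin libraries and most so in mice 2 to 4 (above), and 5 red cell markers were lower there, at 74.4 to 251 summed CPM against 645 to 912 in vehicle and 1322 in mouse 5. The part of blood and vessel content in these results was not tested.

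Angptl4 read 2.36, 2.74 and 3.88 CPM in vehicle (mice 1, 2 and 4) and 12.0, 10.7, 6.77 and 3.83 in oxaliplatin mice 2, 3, 4 and 5. Mice 2 to 4 were above every vehicle library and mouse 5 just below the highest one. The fold change was 1.48 (SE 0.39, edgeR adjusted p = 0.308) and 1.70 without mouse 5 (SE 0.26, adjusted p = 0.0146), and DESeq2 called it with all libraries (adjusted p = 0.00584). Pdk4 read 8.07, 6.55 and 7.64 CPM in vehicle and 18.2, 20.8, 11.1 and 8.23 in oxaliplatin. The order of the mice was nearly the same, and the arms did not overlap, though mouse 5 exceeded vehicle by little. Its fold change was 0.97 (SE 0.30, adjusted p = 0.375), or 1.16 without mouse 5 (SE 0.23, adjusted p = 0.0343). Ucp3, the third of these fuel genes, read lower in every oxaliplatin library, at 5.88, 5.47 and 6.98 CPM in vehicle and 3.14, 4.57, 3.61 and 3.62 in oxaliplatin. Mouse 5 was here as low as mouse 4. The change was -0.71 (SE 0.18, adjusted p = 0.274 in edgeR and 0.0366 in DESeq2), and it is given because DESeq2 called it. Ppara and Ppard were at 0.03 and 0.04, and Fabp3 at -0.06.

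The 2 genes that fell in hypothalamus without mouse 5 were Acaa1a and Hadhb. Acaa1a, the peroxisomal thiolase, read 38.5, 38.6 and 34.2 CPM in vehicle and 20.6, 23.2, 24.6 and 32.8 in oxaliplatin. All 4 were below vehicle, mouse 5 by little, with a fold change of -0.55 (SE 0.15, edgeR adjusted p = 0.308) and -0.71 without mouse 5 (SE 0.11, adjusted p = 0.0120). Hadhb, the mitochondrial thiolase subunit, read 46.2, 55.6 and 55.5 CPM in vehicle and 31.9, 35.1, 36.0 and 46.1 in oxaliplatin. Mouse 5 almost met vehicle mouse 1, and the change was -0.49 (SE 0.13, adjusted p = 0.308), or -0.62 without it (SE 0.10, adjusted p = 0.0191). All 4 acyl-CoA dehydrogenases had a fitted change below 0, from -0.59 for Acads (adjusted p = 0.329) to -0.15 for Acadm, and so did all 5 genes of the later steps, from -0.49 for Hadhb to -0.04 for Hadh. Of these 9 genes, without mouse 5, edgeR called only Hadhb, and DESeq2 Hadhb and Acads. Etfb, Etfdh and Ehhadh lay above 0. Of the shuttle, Cpt1a was at -0.19 and Slc25a20 at -0.27, with none of the 6 activation and shuttle genes under an unadjusted p of 0.05. Eci2 was at 0.30 (adjusted p = 0.461).

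**Figure D5:**
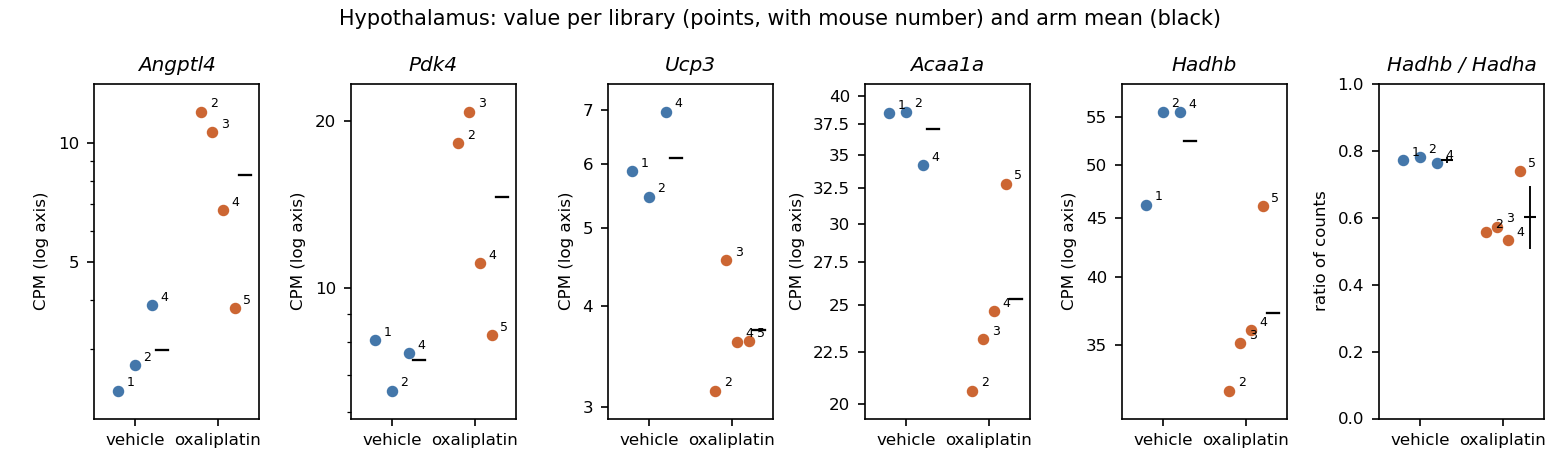
CPM of 5 genes in each hypothalamus library on log axes, and on a linear axis the ratio of Hadhb to Hadha counts (points with the mouse number; black, arm mean, with ± SD for the ratio). Oxaliplatin mice 2 to 4 stand apart from vehicle in all panels, and mouse 5 is nearer to vehicle in all but Ucp3.

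Hadha and Hadhb encode the α and β subunits of the trifunctional protein, which work in a fixed complex, and their start sites lie 273 bases apart on chromosome 5, that of Hadhb inside the window printed above and that of Hadha just outside it. The ratio of Hadhb to Hadha counts in hypothalamus was 0.771, 0.782 and 0.762 with vehicle (mice 1, 2 and 4) and 0.556, 0.573, 0.534 and 0.740 in oxaliplatin mice 2, 3, 4 and 5. Each oxaliplatin library was below the vehicle range, mouse 5 by the least. The means were 0.772 ± 0.00996 (SD, n = 3) and 0.601 ± 0.0944 (SD, n = 4), with an exact two-sided permutation p = 0.0571, the smallest that 3 against 4 allows. Over the 6 ratio tests made (this ratio and Cpt1b to Cpt1a in each tissue), the Benjamini-Hochberg adjusted p was 0.343. Ratios were not among the planned comparisons, and this one uses the same Hadhb values as the fold change above. In fat the ratio was 0.715 ± 0.0613 in vehicle and 0.719 ± 0.115 in oxaliplatin, and in muscle 2.06 ± 0.171 and 2.11 ± 0.122 (exact permutation p = 1 and 0.683). Hadha itself in hypothalamus was at -0.13 (edgeR adjusted p = 0.662). The ratio of Cpt1b to Cpt1a did not separate the arms in any tissue (exact permutation p = 0.190 for muscle, 0.571 for fat and 0.914 for hypothalamus).

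Whether a gene responded differently in 2 tissues was tested as the difference of the effects in a joint edgeR fit. With all libraries 0 of 31 genes passed for fat minus muscle, fat minus hypothalamus or muscle minus hypothalamus, where the shares of all genes were 0.239%, 0.311% and 0.0689%. Counts at an unadjusted p under 0.05 were 8, 8 and 1, beside 17.0%, 19.7% and 9.33% of all genes, and limma-voom with quality weights called 4, 4 and 0, beside 8.30%, 14.4% and 0.459%. Without fat oxaliplatin mouse 5, fat differed from muscle in 3 genes, beside 8.64% of all genes. The difference in log2 fold change was 3.20 for Ehhadh (SE 0.60, edgeR adjusted p = 0.00571), -1.27 for Decr1 (SE 0.33, adjusted p = 0.0255) and -1.22 for Cpt1a (SE 0.28, adjusted p = 0.0133). With all libraries these differences were 2.87, -1.03 and -0.64 in the same order (edgeR adjusted p = 0.138, 0.167 and 0.502). Again without fat oxaliplatin mouse 5, fat differed from hypothalamus in 5 genes, beside 15.2% of all genes. They were Ehhadh by 2.88 (adjusted p = 0.0148), Hadh by -1.45 (0.0192), Cpt1a by -1.44 (0.00102), Acaa2 by -1.31 (0.00196) and Decr1 by -1.07 (0.00888). With all libraries these differences were 2.51, -1.15, -0.85, -1.03 and -0.85 in the same order (edgeR adjusted p = 0.129 to 0.356). Ehhadh, Cpt1a and Decr1 were thus on both lists, and both lists use the same fat libraries. Both counts, of 31 genes, are near the shares of all genes called in these fits. For Angptl4 the effects were 0.20 (fat), 0.59 (muscle) and 1.48 (hypothalamus), and fat minus hypothalamus was -1.27 with all libraries (SE 0.51, adjusted p = 0.202). Hadhb, the sole gene under an unadjusted p of 0.05 for muscle minus hypothalamus, differed by 0.56 (adjusted p = 0.521).

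Other genes of the route were read from 7 lists, and in the edgeR fits with all libraries 0 of their members passed in any tissue. At an unadjusted p under 0.05 the 18 genes of the tricarboxylic acid cycle gave 9 in fat and the 18 of the respiratory chain 12, and DESeq2 called 8 and 9 of them. In muscle each list had 0 to 5 genes under that p, and DESeq2 called 0 or 1 of each. In fat without oxaliplatin mouse 5, where 12.0% of all genes were called higher and 13.5% lower, the genes passing in these 2 lists were all lower. Of 18 tricarboxylic acid cycle genes 8 fell and 0 rose, with Idh3a (a subunit of isocitrate dehydrogenase) at -1.60 (edgeR adjusted p = 0.00295). Of 18 respiratory chain genes 8 fell and 0 rose. Among them the complex I subunit Ndufb8 was at -0.95 (adjusted p = 0.00357), or -0.84 with all libraries (adjusted p = 0.0916). The medians of these 2 lists without mouse 5 were -0.36 and -0.43, and that of all genes 0.01. Other lists went both ways. Of 25 further oxidation genes, mainly but not all mitochondrial, 3 rose and 5 fell, and of 20 peroxisomal genes 2 rose and 3 fell. Of 18 PPAR and PGC1 regulators 6 rose and 2 fell, and of 21 further PPAR-responsive genes 6 rose and 4 fell. In the first of these lists the dehydrogenase gene Hsd17b10 rose by 2.75 (adjusted p = 0.000345), and by 2.41 with all libraries (adjusted p = 0.116). It read 42.65 to 48.86 CPM in vehicle and 48.15 to 362 over all oxaliplatin libraries, so its arms overlapped. The cytosolic thioesterase Acot1, a PPARα target, rose by 4.44 (adjusted p = 0.000783). It read 0.660 to 1.96 CPM in vehicle and 0.941 to 31.0 over all oxaliplatin libraries, mouse 5 included, so those arms overlapped. Of the peroxisomal list, the carnitine octanoyltransferase gene Crot fell by 1.05 (adjusted p = 0.00295) and the transporter gene Abcd2 by 2.11 (adjusted p = 0.00348). With all libraries Crot was at -0.79 (edgeR adjusted p = 0.129). Of the 5 malonyl-CoA genes, Acacb, the acetyl-CoA carboxylase that makes the malonyl-CoA acting on CPT1, rose by 2.28 (adjusted p = 0.00370). Fasn, fatty acid synthase, fell by 2.88 (adjusted p = 0.0337). With all libraries Acacb was at 1.94 and Fasn at -2.31 (edgeR adjusted p = 0.151 and 0.133). The arms of Acacb overlapped, at 317 to 750 CPM in vehicle and 377 to 3115 over all oxaliplatin libraries. In hypothalamus without mouse 5, where 2.12% of all genes were called higher and 1.36% lower, 3 of 18 further PPAR-responsive genes rose and 0 fell, among them Txnip, an inhibitor of glucose uptake, at 1.62 (adjusted p = 0.00664) and the lipid droplet coat gene Plin4 at 2.38 (adjusted p = 0.0308). Acacb rose by 0.99 and Fasn fell by 0.60 there, with adjusted p = 0.0188 and 0.0419. With all libraries Txnip was at 1.34, Acacb at 0.79 and Fasn at -0.47 (edgeR adjusted p = 0.455, 0.4465 and 0.349). Over all libraries the arms of Txnip, Plin4 and Acacb overlapped. Their lowest oxaliplatin values (29.0, 6.95 and 11.07 CPM) were below every vehicle library. Of the 18 tricarboxylic acid cycle and 18 respiratory chain genes 0 passed in hypothalamus without mouse 5, with 5 of each under an unadjusted p of 0.05.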

How the data were processed

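RNA was sequenced in 9 muscle, 7 fat and 7 hypothalamus libraries. Per the labels, RNA came from a bead kit, muscle libraries from a Clontech SMARTer kit, and the others from a RiboErase kit, which depletes ribosomal RNA. Per the submitters' processing notes, STAR 2.5.1a, Partek and DESeq2 were used, with no roles given. The values the authors deposited are expected counts per gene, not scaled between libraries, and 41.0% to 48.6% are not whole numbers. They were rounded to whole numbers first, a change from the planned use of whole counts. Each deposited row sums to at least 10. No source used here names a genome build; gene starts equal GENCODE M21 (GRCm38) for 99.4% to 99.5% of shared identifiers.

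Each tissue was fitted alone with edgeR 4.0.16 in R 4.3.3 (filterByExpr with minimum count 10 and total 15, TMM factors, robust quasi-likelihood F test, Benjamini-Hochberg over all genes, threshold 0.05). The test was run on simulated counts with the same spread for every gene and no outlying library. That check does not show its power or error in these libraries. CPM use library sizes multiplied by TMM factors. Differences between tissues used 1 fit over the 4 groups. DESeq2 1.42.0, limma 3.58.1, other scaling and filters, replicate blocks and each library left out were the alternatives, and 6 were added after the data were seen. Members and lists were chosen with earlier results of these data known. Values per library are given for genes called in a fit with all libraries or 1 left out, and for the 2 largest changes per tissue. Acot2 in muscle, Cpt1b, Eci1, Pdk4 and Ppara in fat and Ucp3 in hypothalamus were added after their values were seen. Genes of further lists are named from the 3 of smallest p per list and tissue. No 2 libraries of a group were copies (lowest chi-square per degree of freedom 6.75 over 34 pairs). Same-numbered mice of the arms did not deviate together, and the labels do not tie a number to 1 animal across tissues, so no block was used.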

Additional observations from a re-analysis of the deposited data

Results flagged for a closer look

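Of 124 groups of 4 or 5 libraries examined (31 genes in 4 arms), 5 held a library far from the rest, where chance gives about 1 in every 20. Cpt1a in muscle of vehicle mouse 4 read 11.9 CPM, against 6.07 to 6.96 in the other vehicle libraries. Muscle of oxaliplatin mouse 3 was high in 3 genes: Acadm at 431 CPM (others 321 to 352), Decr1 at 103 (71.2 to 77.8) and Fabp3 at 688 (478 to 529). In fat of oxaliplatin mouse 5, Crat read 239 CPM, against 339 to 348 in mice 2 to 4.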

How the results depend on the processing

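Counts of called genes depended on the test and on single libraries. In fat the count of 0 became 6 with DESeq2, 10 with limma-voom quality weights, 0 to 9 with 1 library left out, and, in settings added after the data were seen, 12 with DESeq2 and 12 with limma-voom without oxaliplatin mouse 5, and 8 without vehicle mouse 4 too. In hypothalamus it became 2 with DESeq2, 2 with limma-voom, 0 to 4 with 1 library left out, and 7 with DESeq2 without mouse 5. Fat minus muscle gave 4 with limma-voom and 0 to 3 with 1 library left out, and fat minus hypothalamus 4 and 0 to 5. Muscle and muscle minus hypothalamus stayed at 0 in every setting run. DESeq2 size factors and other filters kept every count at 0. The median of the 31 ranged with 1 library left out from -0.0584 to 0.231 in muscle, -0.350 to -0.0562 in fat and -0.128 to -0.0521 in hypothalamus. Signs turned for Angptl4 in muscle (-0.33 with the replicate block, -0.71 with mouse 5 set to vehicle, -0.0868 to 0.831 with 1 library left out), Pdk4 in muscle (-0.0817 with limma-voom, -0.0089 with the block) and Fabp3 in fat (-4.07 to 0.29 with 1 library left out, 0.49 without both libraries). The cause was not tested. Over all genes, edgeR called 24 in muscle (DESeq2 254, no filter 42, 0 with mouse 5 set to vehicle, 2 to 17 with 1 library left out), 0 in fat (DESeq2 2450, limma-voom 5083, 0 to 4969) and 28 in hypothalamus (DESeq2 262, limma-voom 363, 0 to 655). Of 246 values of single named genes under other settings, 179 kept sign and side of the threshold, 60 passed it where the fit with all libraries did not, and 7 changed sign. DESeq2 gave no adjusted p for Fabp3 in fat.

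Mouse numbers did not pair the arms: correlations of same-numbered deviations were 0.06, -0.05, -0.39 and 0.30 in muscle, -0.19 and -0.31 in fat, and 0.01 and -0.01 in hypothalamus. The block moved the fat median to -0.00817. With the number as a replicate block the counts of called members were 0, 0 and 0, and those of all genes 3 in place of 24 in muscle, 0 in fat, and 37 in place of 28 in hypothalamus. Across tissues, same-numbered fat and hypothalamus libraries correlated at 0.05 to 0.20, in 6 of 7 best with their own number, a hint from the data and not the design. With the animal as a replicate block, called members were 0 for all 3 differences, and all genes 3 in place of 45 (fat minus muscle), 0 in place of 65 (fat minus hypothalamus) and 0 in place of 12. Without mouse 5, in a fit added after the data were seen, that replicate block called 0 members for fat minus muscle (432 of all genes) and 7 for fat minus hypothalamus (2144 of all genes), the 5 called without it plus Angptl4 and Acaa1a. Fits with the animal block kept only mouse numbers present in both tissues, so mouse 5 was left out of both. The fit that called 5 left out its fat library alone. The block and the change of libraries thus cannot be told apart. Depth limits the rarest values, such as Fabp3 in fat and Angptl4 in muscle.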
